A study of Mus musculus with 9 samples.

Results

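The 5 genes described here are Tnf, Il6, Il1a, Il1b and Il1rn, the inflammatory cytokine group that mast cells make beside their granules. They were chosen by name, and all 5 were found among the 47643 Ensembl genes of the count table and among the 11560 genes with a median CPM (reads counted per megaread of depth) above 1 over the 9 libraries. RNA was sequenced from mouse bone marrow-derived mast cells (BMMCs), which are mast cells grown from C57BL/6 bone marrow in medium conditioned by WEHI-3 cells, a source of IL-3. The cells formed 3 groups of 3 libraries. The Control group was untreated, IgE+BSA was sensitized with anti-DNP IgE and stimulated with the antigen DNP-BSA, and IgE+BSA+Luteolin received the same stimulus and the flavone luteolin. The labels give luteolin as 10 uM for 24 h in a text that they repeat for all samples, and the group was taken from the treatment label. Whether the Control cells had received IgE, and whether luteolin preceded or followed the antigen in these libraries, was not given consistently in the sources used here. Nothing stated that replicates came from separate animals or cultures, so p-values measure only the spread between these libraries, which may be technical.

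Crosslinking of the IgE receptor on a mast cell drives calcium, MAP kinase and NF-kB signaling, which switch on cytokine genes within a short time. TNF is made as a membrane protein and shed, IL-6 is secreted and signals through gp130, and IL-1α and IL-1β act on the same IL-1 receptor. IL-1β is made as a precursor that is cut by caspase-1 and related proteases, so its mRNA does not give the amount of active protein. Il1rn encodes the IL-1 receptor antagonist, which occupies that receptor without signaling. Many of these mRNAs carry AU-rich words in the 3′ untranslated region (UTR), which recruit decay factors such as tristetraprolin, the product of Zfp36.

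On GRCm38, Tnf lies at chr17:35199381-35202007 on the minus strand, and Il6 at chr5:30013114-30019981 on the plus strand. Il1a (chr2:129299610-129309972) and Il1b (chr2:129364570-129371139) are neighbors on the minus strand of chromosome 2, and Il1rn (chr2:24336853-24351494, plus strand) lies far from them on the same chromosome. The annotation places Gm14023 on the opposite strand over Il1a and Il1bos over Il1b. The libraries were stranded, but the strand setting of the counting was not given, so reads of these partners may not be fully separated. Gm14023 held 5 to 52 counts per library and Il1bos 97 to 276, while Il1b held 1776 to 9656.

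The promoters of Tnf, Il6 and Il1b are shown because these genes had the largest, an intermediate and the smallest fold decrease under luteolin. Each runs 5′ to 3′ over the 250 bases before and 50 bases after the RefSeq start on GRCm38.p6, at chr17:35201958-35202257 (minus strand), chr5:30012864-30013163 (plus strand) and chr2:129371090-129371389 (minus strand). Capitals mark matches, on either strand, to 7 words, namely a kB consensus, AP-1 (letters TGANTCA), the cyclic AMP response element or CRE (TGACGTCA), the core bound by NFAT proteins (TGGAAA), the C/EBP word (TTGCNNAA), the EGR word (GCGNGGGCG) and the TATA box (TATAAA).
Tnf promoter: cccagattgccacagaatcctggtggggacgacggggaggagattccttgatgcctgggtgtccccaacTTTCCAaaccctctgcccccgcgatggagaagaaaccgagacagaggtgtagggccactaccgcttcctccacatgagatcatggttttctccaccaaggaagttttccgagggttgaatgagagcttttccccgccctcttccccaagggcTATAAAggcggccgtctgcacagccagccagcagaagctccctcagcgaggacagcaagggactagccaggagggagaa
Il6 promoter: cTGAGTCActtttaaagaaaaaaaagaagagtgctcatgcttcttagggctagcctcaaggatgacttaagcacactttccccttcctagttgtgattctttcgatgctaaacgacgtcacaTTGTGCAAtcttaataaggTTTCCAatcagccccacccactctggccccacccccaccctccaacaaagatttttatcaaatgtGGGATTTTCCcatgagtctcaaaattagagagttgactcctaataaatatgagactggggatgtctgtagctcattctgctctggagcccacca
Il1b promoter: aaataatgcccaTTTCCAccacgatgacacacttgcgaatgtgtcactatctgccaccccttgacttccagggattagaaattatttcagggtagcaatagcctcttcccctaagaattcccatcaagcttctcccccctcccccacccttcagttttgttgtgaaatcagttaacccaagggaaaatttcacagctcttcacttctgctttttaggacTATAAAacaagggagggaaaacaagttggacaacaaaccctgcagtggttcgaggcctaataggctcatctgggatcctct

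The Il6 window held 4 kinds of word, an AP-1 match beginning at base -249 from the start, a C/EBP match at -128, an NFAT match at -109 and a kB match at -44. The Tnf and Il1b windows each held an NFAT word, at -181 and -238, and a TATA word, at -29 and -31. The Il1a window held an AP-1 word at -12 and a TATA word at -32, and the first of 3 listed Il1rn promoters held an AP-1 word at -141. None of these matches overlapped another word. Among 32851 RefSeq promoters of the same length, 8.46% held the kB word, 7.81% AP-1, 1.79% CRE, 21.4% NFAT, 10.8% C/EBP, 5.55% EGR and 13.6% TATA. These matches are letters in a window and were not tested for binding.

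The 3′ UTRs separated the members further. That of Tnf, 764 bases long, held 8 copies of AUUUA, and 5 of the nonamer UUAUUUAUU. The 30 bases with the most nonamers are shown because only 36 of 20644 genes held 5 or more nonamers, with overlapping nonamers in capitals.
Tnf 3′ UTR, from position 435: uuaUUAUUUAUUAUUUAUUUAUUAUUUAUU
The density of AUUUA was 10.47 per kb in Tnf, 14.05 in Il6 and 8.71 in Il1b, all above the 95th percentile of 6.09 per kb over genes, and 2.72 in Il1a against a median of 1.24. The 1864 bases of the Il1rn 3′ UTR held no AUUUA, a word found in 64.14% of 3′ UTRs. The order of these densities was not the order of the fold changes under luteolin, since Il6 fell less than Tnf and Il1b fell least. Decay of mRNA was not measured, and a link between density and change was not tested.

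Libraries held 9515004 to 24605689 counts, and 3 counts corresponded to 0.122 to 0.315 CPM. All 13 mast cell markers examined were among the tested genes, and their sum was 59600 to 87900 CPM. T and B cell markers summed to 2.52 to 3.65 CPM, with Cd3e and Ms4a1 listed at 0, and macrophage markers to 522 to 634 CPM. Between IgE+BSA+Luteolin and IgE+BSA, where the cytokines fell, the mast cell sum was 75700 to 86700 against 64600 to 70900 CPM, with 6 of 13 markers higher and 4 lower, among them Tpsab1 (log2 -1.32), a tryptase, and Hdc (-1.16), which makes histamine. In the same comparison 3 of 3 basophil markers were higher, by 0.19 to 0.24, and 3 of 9 neutrophil markers, beside 17.8% of all genes, and 1 of 7 macrophage markers, Cd14 (-0.44, adjusted p = 0.0022), was lower, beside 22.2%. The 10 neutrophil markers, 9 of them tested, summed to 20.4 and 19.7 CPM in Control replicates 2 and 3 but to 201 to 281 CPM in the other 7 libraries, Control replicate 1 included. Control replicate 1 stood apart. Its mean correlation of log2 CPM was 0.9499 with the other Control libraries and 0.9824 with the IgE+BSA+Luteolin libraries. It also had the highest Control level of all 5 cytokine genes, so the comparisons of these genes with Control are given with and without it. The part of these differences between cultures in the results was not tested.

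Stimulation with IgE and antigen raised Tnf, Il6 and Il1a, and luteolin lowered all 5 genes. Levels below are TMM-normalized CPM. Tnf, the cytokine that mast cells both store and synthesize, was 21.75, 12.01 and 10.63 CPM in the Control libraries, 764.8, 800.5 and 710.5 in IgE+BSA, and 41.67, 37.56 and 46.45 in IgE+BSA+Luteolin. The 3 groups did not overlap, and every luteolin library lay above every Control library. The means were 14.8 ± 6.06, 758.6 ± 45.3 and 41.89 ± 4.45 CPM (SD, n = 3).

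Il6, whose product drives acute-phase and plasma cell responses, was already well expressed in Control, at 342.8, 211 and 188.9 CPM. It reached 1584, 1510 and 1568 CPM in IgE+BSA and was 321.6, 302.2 and 326.7 CPM with luteolin. The luteolin libraries fell inside the range of the Control libraries, below Control replicate 1 and above the other two. Group means were 247.5 ± 83.2, 1554 ± 38.6 and 316.8 ± 12.9 CPM.

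Il1a encodes IL-1α, which is active without caspase-1 cleavage and acts as an alarm signal when cells are damaged. It was 44.18, 14.92 and 18.38 CPM in Control, 105.6, 99.33 and 107.1 in IgE+BSA, and 37.42, 34.97 and 36.01 with luteolin. As for Il6, the IgE+BSA libraries stood above all others, and the luteolin libraries lay within the Control range. The means were 25.83 ± 16, 104 ± 4.13 and 36.14 ± 1.23 CPM.

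Il1b moved the least. It was 320.3, 172 and 171.1 CPM in Control, 436.5, 468.3 and 433.1 in IgE+BSA, and 347.4, 347.1 and 347.5 with luteolin. The groups did not overlap, but Control replicate 1 lay closer to the luteolin libraries than to its own group. The SD of the luteolin libraries, 0.195 CPM, was below the counting error of 7189 to 8575 reads, which is 1.08% to 1.18% of the level, so it understates the true spread. The means were 221.1 ± 85.9, 446 ± 19.4 and 347.3 CPM.

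Il1rn, the antagonist, had the lowest mean CPM of the 5 in each group. It was 18.39, 9.395 and 6.966 CPM in Control, 28.21, 23.55 and 32.38 in IgE+BSA, and 14.31, 13.84 and 14.02 with luteolin. The IgE+BSA libraries were highest, and the luteolin libraries lay within the range of Control. The means were 11.58 ± 6.02, 28.05 ± 4.42 and 14.06 ± 0.235 CPM. As for Il1b, the luteolin SD, 1.67% of the mean, was below the counting error of 5.41% to 5.87%, so it understates the true spread.

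**Figure D1:**
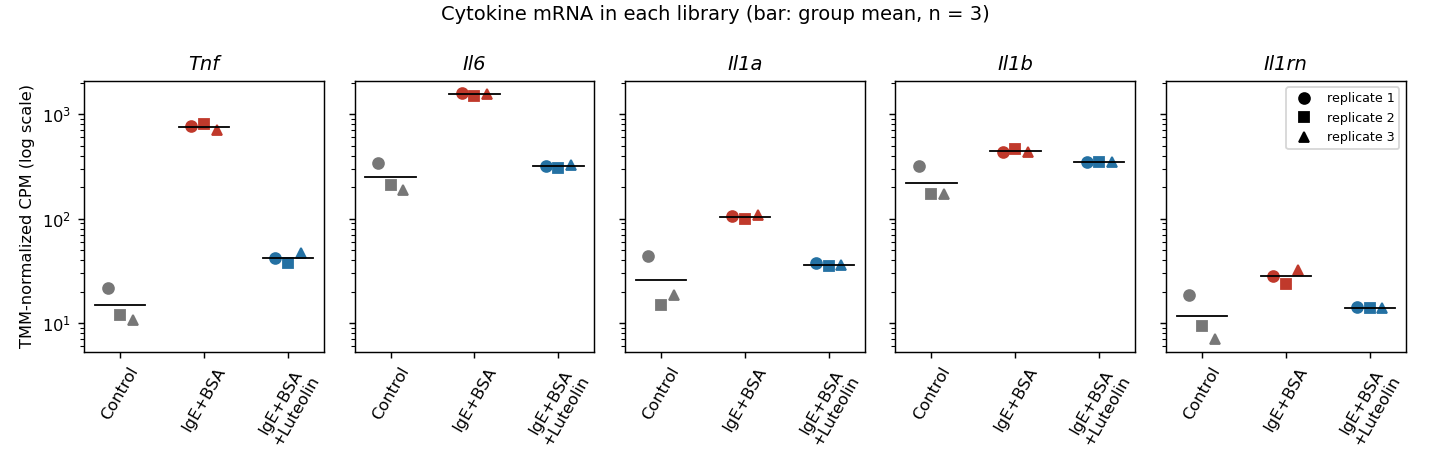
TMM-normalized CPM on a log scale for each gene (panels) and group (x axis), with 1 point per library, shaped by replicate number, and a bar at the group mean. IgE+BSA libraries are highest for every gene, and the circle of Control replicate 1 is the highest Control point in all 5 panels.

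The first comparison, IgE+BSA against Control, asks which genes respond to IgE and antigen together. Tnf rose by 5.67 ± 0.31 (log2, SE), or 51-fold, with an adjusted p of 0.00018 in edgeR's quasi-likelihood test. This was the highest log2 fold change of the 11560 genes. Il6 rose 6.28-fold (log2 2.65 ± 0.23, adjusted p = 0.00162) and Il1a 4-fold (2 ± 0.38, adjusted p = 0.0413). Il1b and Il1rn, at 2.02-fold and 2.41-fold, did not pass the threshold of 0.05 (adjusted p = 0.0813 and 0.105). No library of either group overlapped for these genes, but the share of all genes without overlap is not given here. Over all genes, 2.21% were called higher and 0.891% lower, beside 3 of the 5 members called higher.

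The calls of the 3 IL-1 genes depended on single libraries. Without Control replicate 1, all 5 members were called, with log2 changes of 1.38 for Il1b (adjusted p = 1.76e-09) and 1.83 for Il1rn (adjusted p = 7.41e-07). Those of Tnf, Il6 and Il1a were then 6.09, 2.96 and 2.61. The share of all genes called higher was 26.6% in that fit. The Il1a call was lost without Control replicate 2 (adjusted p = 0.112), Control replicate 3 (0.143), or IgE+BSA replicate 1 (0.185), 2 (0.149) or 3 (0.181).

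The next comparison, IgE+BSA+Luteolin against IgE+BSA, asks what luteolin did to stimulated cells. All 5 genes fell, and no library of either group overlapped for any of them. The share of all genes without such overlap is not given here. Tnf was 18.1-fold lower (log2 -4.18 ± 0.08, adjusted p = 4.31e-16), the 10th lowest log2 change of all genes. Il6 was 4.9-fold lower (-2.29 ± 0.05, adjusted p = 5.07e-15) and Il1a 2.88-fold lower (-1.53 ± 0.06, adjusted p = 4.89e-12). Il1rn was 2-fold lower (-1 ± 0.11, adjusted p = 2.43e-06), and Il1b was 1.28-fold lower (-0.36 ± 0.05, adjusted p = 5.21e-05). With luteolin the mean was 5.52% of the IgE+BSA mean for Tnf, 20.4% for Il6, 34.7% for Il1a, 50.1% for Il1rn and 77.9% for Il1b. Changes in this comparison were widespread, with 22.2% of genes called lower and 17.8% higher. All 5 calls held without any 1 library. Those of Il1b and Il1rn were lost when all 9 libraries shared 1 estimate of spread (adjusted p = 0.328 and 0.0646). When libraries were scaled by size alone, the median of all genes moved to 0.13, and the decrease of Il1b was then -0.24 (adjusted p = 0.00114).

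The last comparison, IgE+BSA+Luteolin against Control, asks how far the treated cells remained from unstimulated ones. Tnf was 2.82-fold higher than in Control (log2 1.49 ± 0.27, adjusted p = 0.0374), and this was the only member called. Over all genes 0.285% were called higher and 2.76% lower. Il1b was higher in every luteolin library than in any Control library, at log2 0.65 (adjusted p = 0.181). Il6 (0.36, adjusted p = 0.355), Il1a (0.47, adjusted p = 0.454) and Il1rn (0.27, adjusted p = 0.62) overlapped Control. Without Control replicate 1, all 5 were called higher, at log2 1.91 for Tnf, 1.09 for Il1a, 1.02 for Il1b, 0.82 for Il1rn and 0.67 for Il6, beside 30.6% of all genes. The Tnf call was lost without Control replicate 2 (adjusted p = 0.149) or 3 (0.12), or without IgE+BSA+Luteolin replicate 1 (0.18), 2 (0.158) or 3 (0.155). The comparisons of IgE+BSA and of IgE+BSA+Luteolin with Control share the Control libraries, and the comparisons with and of IgE+BSA share its libraries.

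**Figure D2:**
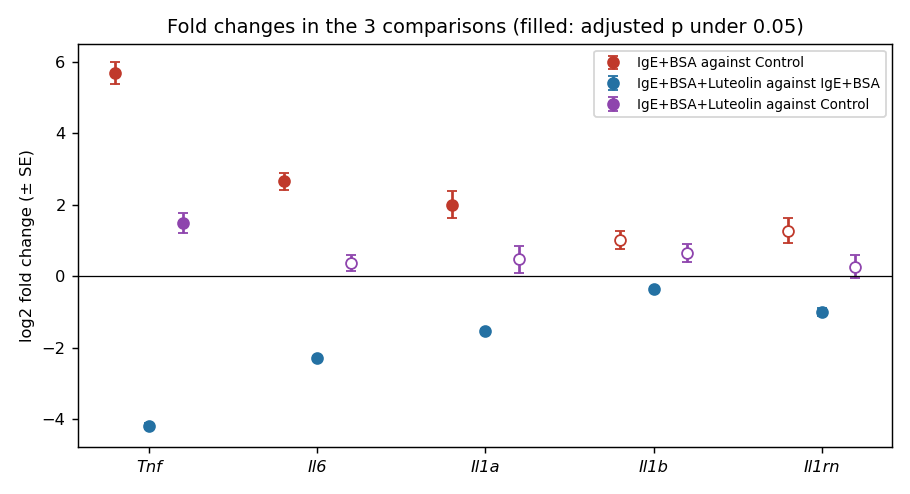
Log2 fold change ± SE (y axis) of each gene (x axis) in the 3 comparisons, with filled points for an adjusted p under 0.05. The luteolin decreases run from -4.18 for Tnf to -0.36 for Il1b, and 4 of the 5 differences from Control under luteolin are open points.

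The share of induction left under luteolin was taken as the difference between IgE+BSA+Luteolin and Control in mean CPM, as a percent of the difference between IgE+BSA and Control. It was 3.64% ± 0.584 (SE over libraries) for Tnf, 5.31% ± 3.53 for Il6 and 13.2% ± 10.3 for Il1a, with no test. The induction itself was 743.8 CPM for Tnf, 1306 CPM for Il6 and 78.2 CPM for Il1a. Leaving out 1 library gave 3.34% to 4.09% for Tnf, 3.13% (without Control replicate 3) to 8.64% (without Control replicate 1) for Il6, and 6.67% (without Control replicate 2) to 22.3% (without Control replicate 1) for Il1a. The ranges of 1 SE around the shares of all 3 genes overlapped, but the shares use the same libraries, so this does not compare the genes. In every leave-out Il1a had the highest share of the 3. Without Control replicate 1, with the values given below, the ranges of 1 SE did not overlap. The 256 genes called higher in IgE+BSA had a median share of -6.42%, with quartiles of -24.2% and 17.6%, and 155 of them had a share below 0, that is, a mean below Control. The share of Tnf was above that of 65.6% of these genes, that of Il6 above 66.8% and that of Il1a above 72.7%. Il1b and Il1rn were not called higher, so their shares are a description only, added after seeing the data. Over all 9 libraries they were 56.1% ± 10.1 for Il1b and 15% ± 18.1 for Il1rn. Leaving out 1 library gave 50.6% (without Control replicate 3) to 64% (without Control replicate 1) for Il1b and 1.15% to 29.6% for Il1rn, at the same libraries, with 8.97% for Il1rn without Control replicate 2. Without Control replicate 1, the leave-out in which both genes were called, they were 64% ± 2.62 and 29.6% ± 5.78, beside 4.09% ± 0.383 for Tnf, 8.64% ± 0.939 for Il6 and 22.3% ± 1.85 for Il1a.

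**Figure D3:**
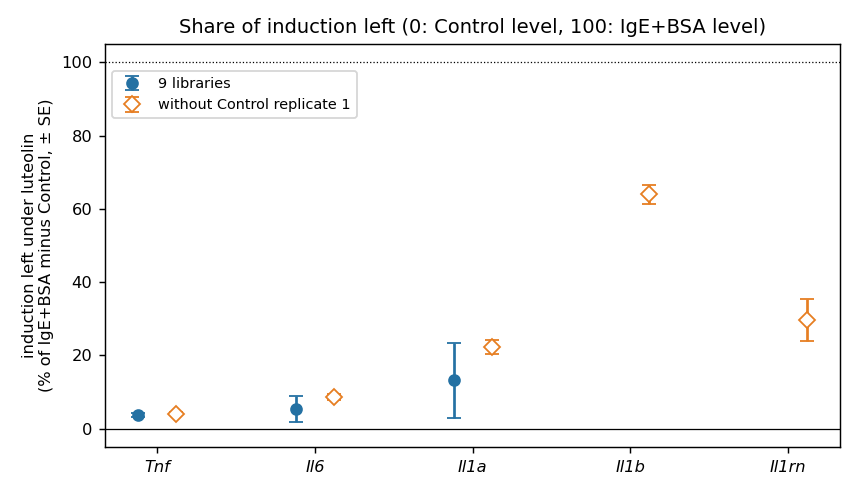
Percent of the induction left under luteolin (y axis, ± SE) for each gene, over 9 libraries (filled circles) and without Control replicate 1 (open diamonds), where 0 is the Control level and 100 the IgE+BSA level. Il1b and Il1rn have no circle because they were not called higher over 9 libraries. Among the diamonds Il1b has the highest share, at 64%.

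The order of the 5 genes per kilobase of exon changed with stimulation. In Control, Il1b (116 ± 45 CPM per kb) and Il6 (101.9 ± 34.3) were highest, followed by Il1a (13.08 ± 8.1), Tnf (9.028 ± 3.7) and Il1rn (2.093 ± 1.09). The ranges of Il1b and Il6 overlapped, as did those of Il1a and Tnf. Within each Control library Il1b stood above Il6 (168 against 141.2, 90.2 against 86.88 and 89.72 against 77.78). Il1a likewise stood above Tnf (22.38 against 13.27, 7.556 against 7.328 and 9.313 against 6.488), in replicate 2 by less than the counting error. In IgE+BSA the order was Il6 (640 ± 15.9), Tnf (462.8 ± 27.6), Il1b (233.9 ± 10.2), Il1a (52.7 ± 2.09) and Il1rn (5.067 ± 0.798), with neighbors separated by more than their SDs. With luteolin, Il1b (182.1 CPM per kb) was again highest, followed by Il6 (130.5 ± 5.33), Tnf (25.56 ± 2.71), Il1a (18.31 ± 0.623) and Il1rn (2.54). The order was the same with the length of the longest transcript.

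Ratios within a library do not depend on scaling. Per kilobase, there were 8.74 ± 0.579 Tnf reads per 100 Il6 reads in Control, 72.4 ± 5.74 in IgE+BSA and 19.6 ± 1.36 with luteolin. Il1a stood at 10.7 ± 2.48 per 100 Il1b in Control, 22.6 ± 1.83 in IgE+BSA and 10.1 ± 0.339 with luteolin. The antagonist Il1rn stood at 1.76 ± 0.309 per 100 Il1b in Control, 2.18 ± 0.424 in IgE+BSA and 1.4 ± 0.023 with luteolin. That last SD understates the true spread, as it does for the Il1rn level. In a two-sided exact permutation test the Il1rn to Il1b ratio was lower with luteolin than in IgE+BSA by 0.62 on the log2 scale, at p = 0.1, the smallest that 3 against 3 libraries allow (adjusted p = 0.3 over 3 comparisons). The exact p was 0.3 for IgE+BSA against Control and 0.2 for IgE+BSA+Luteolin against Control. Without Control replicate 1 these log2 differences were 0.40 and -0.22, against 0.31 and -0.32 with it.

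**Figure D4:**
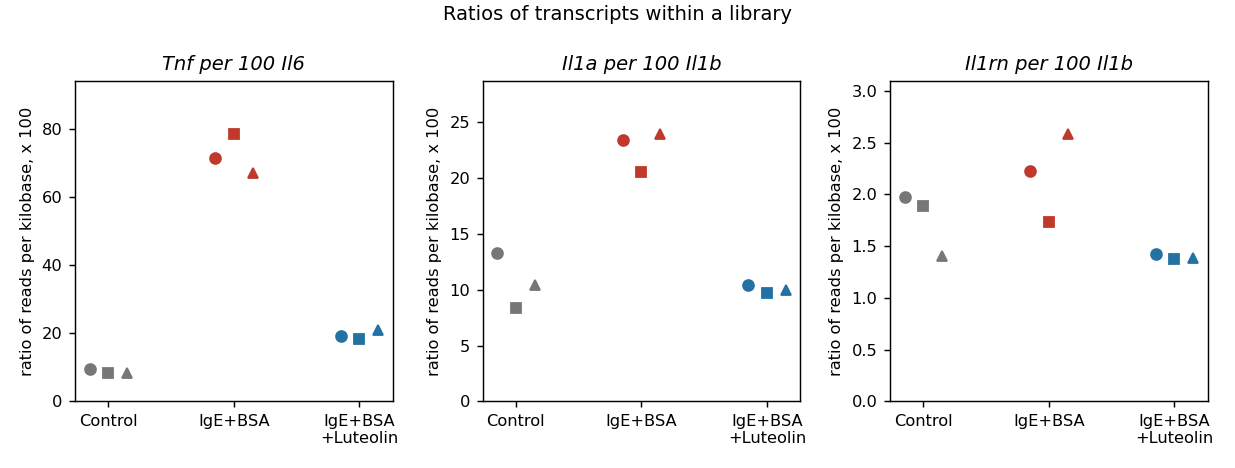
Ratios of reads per kilobase within each library, times 100 (y axes from 0), by group, with 1 point per library shaped by replicate number as for the cytokine levels. Tnf relative to Il6 peaks in IgE+BSA (72.4 per 100) and stays above Control with luteolin (19.6 against 8.74), while Il1a relative to Il1b returns to 10.1.

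The genes whose pattern over the 9 libraries was most like each member were found by the Pearson correlation of log2(CPM + 0.5), as a description. The libraries share groups, so genes that respond to the treatments correlate. Tnf was followed by Nfkbid (r = 0.9957), an atypical IkB protein, Ccl2 (0.9949), a monocyte chemokine, and Tes (0.9918). Il6 was followed by Adora3 (0.9978), an adenosine receptor of mast cells, Ccl3 (0.9971), a chemokine, and Tnfsf9 (0.9966), the ligand of 4-1BB. For Il1a they included Thbs1 (0.994) and Csf2 (0.994), which encodes GM-CSF. For Il1b they were Glipr2 (0.9912), Rab5if (0.9892) and Pvr (0.9885), and for Il1rn Morf4l2 (0.993), Psmd5 (0.9869) and Cxcl1 (0.9806).

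Among other ligands of the same families, 2 of 3 tested IL-6 family genes fell under luteolin and 1 was called higher, beside 22.2% and 17.8% of all genes. Lif, a gp130 cytokine, went from 472.4 ± 192 CPM in Control to 2515 ± 106 in IgE+BSA and 450 ± 51.9 with luteolin (log2 -2.48 ± 0.07 against IgE+BSA, adjusted p = 4.62e-14), and was more abundant than Il6 in CPM. Osm, oncostatin M, stood at 288.7, 854 and 254.2 CPM (-1.75, adjusted p = 3.33e-12), and Ebi3, a subunit of IL-27 and IL-35, stood 0.18 higher (adjusted p = 0.049), a call that DESeq2 and limma did not make and that was lost in 4 of 6 leave-outs, without IgE+BSA replicate 1 or 3 or IgE+BSA+Luteolin replicate 1 or 2 (adjusted p = 0.0719 to 0.246). Lif was the only 1 of the 3 called higher in IgE+BSA than in Control, and all 3 were without Control replicate 1, beside 2.21% and 26.6% of all genes. Of 7 other IL-1 family ligands, Il36g alone was tested and was not called (-0.64, adjusted p = 0.101), but was without IgE+BSA+Luteolin replicate 1. Il36a and Il36rn matched no symbol, and the highest group mean of the rest was 0.6911 CPM, for Il18. Of the lymphotoxins, which neighbor Tnf, Ltb was higher under luteolin (0.40 ± 0.15, adjusted p = 0.0474), a call lost with all 9 libraries in the fit and without the same 4 libraries as for Ebi3 (adjusted p = 0.052 to 0.221), and Lta was too low to test.

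Of 7 receptor genes tested, 1 fell under luteolin, beside 22.2% of all genes. It was Tnfrsf1b, the second TNF receptor (70.64 to 55.18 CPM, log2 -0.36, adjusted p = 0.000544), and 2 fell without IgE+BSA+Luteolin replicate 3, beside 24.1%. The first TNF receptor Tnfrsf1a (-0.61, adjusted p = 0.0945) and the IL-1 receptor Il1r1 (-0.89, adjusted p = 0.156) were not called, and their group means were at most 3.169 CPM. Both stood higher in IgE+BSA than in Control, at log2 1.39 and 1, without passing the test (adjusted p = 0.144 and 0.318). For IgE+BSA against Control edgeR called 0 receptors higher (1 at an unadjusted p under 0.05, and 0 with DESeq2 or limma), beside 2.21% of all genes, and 3 without Control replicate 1, beside 26.6%.

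Of 9 genes for processing and release, 3 were lower and 2 higher under luteolin, beside 22.2% and 17.8% of all genes. Nlrp3, the sensor of the inflammasome that activates caspase-1, went from 391.9 ± 34.3 to 697 ± 11.9 and then to 210.7 ± 12.3 CPM (log2 -1.73 ± 0.06, adjusted p = 2.29e-13 against IgE+BSA), and was also below Control (-0.89, adjusted p = 0.0121). That last call was lost without Control replicate 2 or 3 or any 1 of the IgE+BSA+Luteolin libraries (adjusted p = 0.0548 to 0.114). Rhbdf2, which brings the TNF-shedding protease to the cell surface, fell by 0.98 on the log2 scale and Casp4 by 0.83, whereas Pycard, the inflammasome adaptor, rose by 0.40 and Adam17, that protease, by 0.26. Both increases were lost with all 9 libraries in the fit, and that of Pycard also without IgE+BSA replicate 3 or IgE+BSA+Luteolin replicate 1 (adjusted p = 0.0559 to 0.0783). Casp1 stood at 27.27 CPM in IgE+BSA and 31.25 with luteolin (adjusted p = 0.118). Nlrp3 was the 1 gene of this list called higher in IgE+BSA than in Control, beside 2.21% of all genes. The count was 0 without any 1 of the IgE+BSA libraries, beside 0.753% to 0.934% of all genes, and 2 without Control replicate 1, beside 26.6%.

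Of 17 adaptors and kinases downstream of these receptors, 8 fell and 2 rose under luteolin, beside 22.2% and 17.8% of all genes. The number that fell was 5 without IgE+BSA replicate 3 or IgE+BSA+Luteolin replicate 2, beside 18.6% and 17.6% of all genes. It was 3 when scaled by library size alone or by upper-quartile factors, beside 15.3% and 17.5%. With all 9 libraries in the fit it was 2, beside 7.93%. The decrease of Traf6, a ubiquitin ligase of IL-1 receptor signaling, was 1.21 on the log2 scale (33.83 to 14.59 CPM, -1.21 ± 0.11, adjusted p = 1.93e-07), and no other gene of the list reached a 2-fold change. Myd88 and Tradd, the adaptors of the IL-1 and TNF receptors, each rose by 0.37, calls that were lost with all 9 libraries in the fit, and for Tradd also without IgE+BSA replicate 1 or IgE+BSA+Luteolin replicate 2 (adjusted p = 0.0597 to 0.0682). In IgE+BSA against Control edgeR called 0 of them higher (2 at an unadjusted p under 0.05, 1 with DESeq2 and 0 with limma), beside 2.21% of all genes, and 4 without Control replicate 1, beside 26.6%.

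Of 14 transcription factors that act on these cytokine genes, 13 were lower under luteolin, beside 22.2% of all genes, with a median log2 change of -0.68 against 0.01 over all genes. With all 9 libraries in the fit 7 were called, beside 7.93% of all genes. Atf3, a stress-induced factor, went from 16.45 to 216.4 and then to 10.78 CPM (log2 -4.33 ± 0.07, adjusted p = 1.32e-16). Jun went from 211.1 to 1176 and then 142.8 CPM (-3.04), Nfkbiz, an IkB protein needed for Il6 transcription, from 118.3 to 546.6 and then 66.99 CPM (-3.03), and Rel, the NF-kB subunit c-Rel, from 103.4 to 313.9 and then 58.98 CPM (-2.41). The immediate early genes Egr1 (3255 to 1884 CPM, -0.79) and Fos (354.2 to 219.7 CPM, -0.69) fell less, and both lost the call with all 9 libraries in the fit. Cebpd stood at -0.75 without passing the test (adjusted p = 0.0556). Fos stood above Control (2.56, adjusted p = 0.011), a call lost without Control replicate 3 or any 1 of the IgE+BSA+Luteolin libraries (adjusted p = 0.0541 to 0.0929). In IgE+BSA, without luteolin, 6 of the 14 were called higher than in Control, beside 2.21% of all genes. Leaving out 1 library gave 4, without IgE+BSA replicate 1 or 3, to 9, without Control replicate 1, beside 0.753% and 26.6% of all genes.

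Of 7 inhibitors of NF-kB and cytokine signaling, 4 were lower and 1 higher under luteolin, beside 22.2% and 17.8% of all genes. Nfkbia, which encodes IkBα and is itself an NF-kB target, went from 97.28 ± 4.48 to 188.5 ± 12.8 and then to 16.89 ± 0.427 CPM (log2 -3.48 ± 0.07, adjusted p = 6.55e-16), below Control by 2.53 on the log2 scale (-2.53, adjusted p = 0.000331). Tnip3 (-2.01) and Socs3 (-1.86), an inhibitor of gp130 signaling, also fell. Tnfaip3, which encodes the deubiquitinase A20, kept more of its level, at 185.2, 598 and 463.3 CPM (-0.37, adjusted p = 9.35e-05), and stood above Control (1.32, adjusted p = 0.00374), a call lost without IgE+BSA+Luteolin replicate 1 or 2 (adjusted p = 0.058 to 0.065). Tnip1 rose by 0.27, a call lost with all 9 libraries in the fit. Against Control, 4 were called higher in IgE+BSA, beside 2.21% of all genes. The count was 4 without Control replicate 1, beside 26.6%, and 2 without any 1 of the other libraries, beside 0.753% to 1.08%.

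Factors that act on AU-rich and stem-loop elements of cytokine mRNAs were lower in 7 of 11 cases in the same comparison, beside 22.2% of all genes. Zfp36 went from 20.23 to 76.32 and then to 10.19 CPM (log2 -2.91 ± 0.10, adjusted p = 3.85e-13), and its relatives Zfp36l1 (-2.24) and Zfp36l2 (-0.97) also fell. Zc3h12a, which encodes the endonuclease Regnase-1, fell by 1.80 on the log2 scale (-1.80) and its relative Zc3h12c by 3 (-3). Arid5a, which protects Il6 mRNA, fell by 0.57 and Rc3h1, which encodes the RNA-binding protein Roquin-1, by 0.55, the latter call being lost with all 9 libraries in the fit. Elavl1, which encodes the stabilizing protein HuR, stood at 99.07 and 108 CPM (adjusted p = 0.0916). In IgE+BSA against Control 3 were called higher, beside 2.21% of all genes. The count was 8 without Control replicate 1, beside 26.6%, and 1 without any 1 of the IgE+BSA libraries, beside 0.753% to 0.934%. The alternatives for these lists and their genes were taken after seeing the data.

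**Figure D5:**
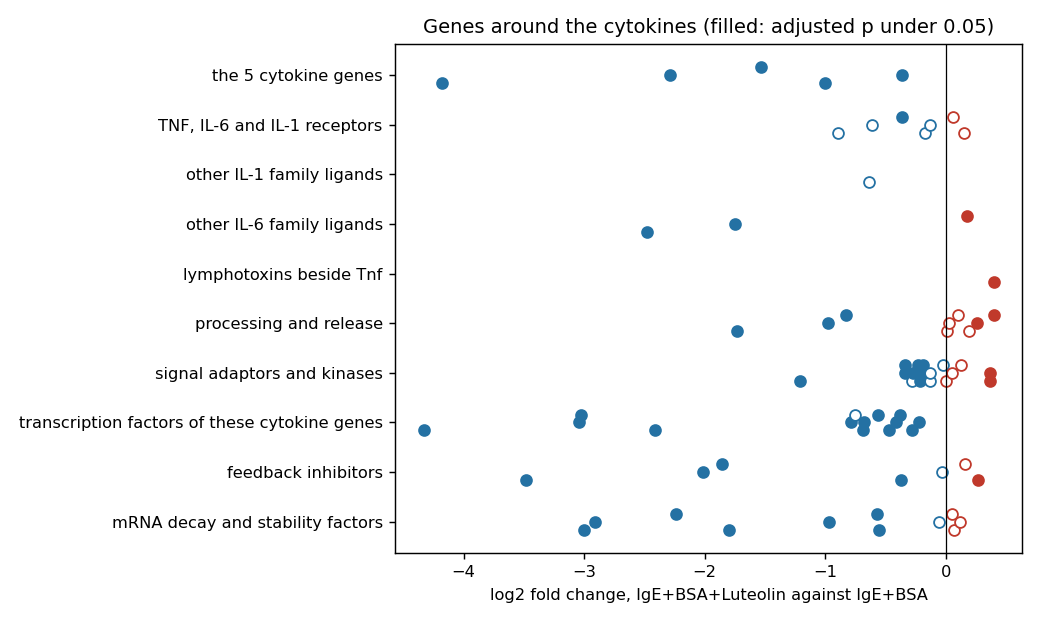
Log2 fold change of IgE+BSA+Luteolin against IgE+BSA (x axis) for each tested gene of the 5 cytokines and the 9 lists (rows), blue below and red above 0, filled for an adjusted p under 0.05. All 14 transcription factors lie below 0, 13 of them filled, and 1 of the 7 receptors is filled.

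Between IgE+BSA+Luteolin and Control, of 14 transcription factors 1 was lower and 1 higher, of 7 inhibitors 2 were lower and 1 higher, and 2 genes each of the processing and mRNA decay lists were lower, beside 2.76% lower and 0.285% higher over all genes. Without Control replicate 1 the numbers lower were 8 transcription factors, 8 decay factors, 3 processing genes and 3 inhibitors, beside 29.5% of all genes. Without Control replicate 2 or 3 or any 1 of the IgE+BSA+Luteolin libraries, 0 transcription factors, 0 processing genes and 1 inhibitor were lower, beside 0.0173% to 0.415% of all genes. The decay list had 0 in the same fits, except 1 without IgE+BSA+Luteolin replicate 3. In these bulk cultures, a change in the share of responding cells and a change in mRNA per cell cannot be told apart.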

How the data were processed

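RNA of 9 BMMC libraries, 3 per group, was prepared as stranded mRNA libraries. The authors filtered reads with HTStream, aligned them with STAR 2.7.0f against mm10, and deposited unnormalized integer counts for each Ensembl gene. The column names give htseq_count as the counter, and its version, strand setting and annotation were not given in the sources used here.

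Groups came from the treatment labels. Counts were analyzed in R 4.3.3 with edgeR 4.0.16. TMM factors came from all 9 libraries, genes with a median CPM above 1 were kept (11560), and each comparison was tested on its 6 libraries by the two-sided quasi-likelihood test with p-values adjusted by Benjamini-Hochberg (threshold 0.05). The alternatives used DESeq2 1.42.0, limma 3.58.1, other scalings and filters, a replicate block and each library left out. On simulated data with 200 of 11560 genes changed 2-fold, 55.5%, 93.5% and 58.5% were recovered in the 3 comparisons in the order reported, and 4.31%, 6.5% and 9.3% of calls were false. The simulation drew genes independently, held no library that stood apart, and changed fewer genes than the 4622 called under luteolin. Its rates may therefore differ from those of the data. Replicates of a group differed by more than sampling noise (chi-square over its degrees of freedom at least 3.82).

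The 5 genes and the lists were chosen with earlier results of these data known. Named genes are the 5, the list genes past the threshold with a 2-fold change and up to 4 more per list by size of change under luteolin, and the 3 most correlated genes per member, of which 1 is not reported here, while Casp1 was added after its values were seen and the marker genes Tpsab1, Hdc and Cd14 for their change. Symbols and 3′ UTRs are from GENCODE M21, which matched 47224 of 47643 IDs, and promoters from RefSeq, GRCm38.p6. Counting errors cover sampling of reads only.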

Additional observations from a re-analysis of the deposited data

How the results depend on the processing

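In IgE+BSA against Control, 5 rather than 3 of the cytokine genes were called with DESeq2 and its own size factors together, with no filter on low counts and with all 9 libraries in the fit, and 2 to 5 when 1 library was left out. The shares of all genes called higher were then 5.18%, 1.59% and 5.83%, and 0.753% to 26.6% in the leave-outs. In IgE+BSA+Luteolin against IgE+BSA the number was 3 rather than 5 with all 9 libraries in the fit, beside 7.93% of all genes called lower. It was 5 in the other alternatives, beside 12.8% to 25.7%. In IgE+BSA+Luteolin against Control it was 1, and 0 to 5 when 1 library was left out, beside 0% to 30.6% of all genes called higher. The difference of Il1rn there turned to -0.0017 (log2) without Control replicate 3, and ran from that to 0.82 without Control replicate 1. The causes were not tested. With 2 Control libraries the spread is judged from 5 libraries.

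The replicate numbers are shared labels only. Correlations of same-numbered libraries ran from -0.29 to 0.349, and in no comparison were they all above 0.1, and 2, 4 and 3 of 6 libraries correlated best with their own number. With a replicate block in the same edgeR fit, 3, 5 and 1 of the cytokine genes were called, as without it, while calls over all genes went from 359 to 146, from 4622 to 5568 and from 352 to 221.

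Over all genes, calls ran from 90 (without IgE+BSA replicate 3) to 5297 (without Control replicate 1) around 359 in IgE+BSA against Control, from 1093 (all 9 libraries in the fit) to 5624 (library size alone) around 4622 in IgE+BSA+Luteolin against IgE+BSA, and from 2 (without IgE+BSA+Luteolin replicate 2) to 6939 (without Control replicate 1) around 352 in IgE+BSA+Luteolin against Control. DESeq2 with its size factors called 1227 and 1379 genes in the comparisons with Control. Scaling moved the balance of calls. In IgE+BSA+Luteolin against IgE+BSA, 44.6% of calls were higher, against 68.6% by library size alone and 61.8% with upper-quartile factors. In IgE+BSA against Control these were 71.3%, 37.3% and 52.4%, and library size alone moved the median of all genes to -0.153. The 5 cytokine genes kept their direction under both scalings. The shares of induction of Tnf, Il6 and Il1a and the Il1rn to Il1b ratios moved by less than the spread between replicates or stayed on the same side in every alternative run.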
